A study of Mus musculus with 24 samples.

Results

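A group of 10 genes of eosinophils, basophils and mast cells was followed in the bone marrow and liver of Erfe-/- mice after phlebotomy: Epx, Prg2, Prg3, Ear1, Ear2, Ear6, Il5ra, Ccr3, Mcpt8 and Cpa3. They were taken by gene name from the array annotation and make up 10 of 37008 names and 13 of 56605 probes, since Prg3, Ear6 and Il5ra have 2 probes each. The mice were male and lacked Erfe, and blood was taken by puncture of the retro-orbital sinus. Tissue came from 4 mice without phlebotomy, labelled control at 0 h, from 4 mice at 24 h and from 4 mice at 48 h after it, and 4 liver and 4 marrow RNA samples per time were put on 24 one-colour Agilent arrays. The controls carried the same Erfe-/- genotype, no mice with Erfe were analysed here, and neither age nor strain background is given in the sources used here. Erfe encodes erythroferrone, a hormone that erythroblasts release after blood loss and that lowers hepcidin production in the liver. As all the mice lacked the gene, the comparisons describe the time after phlebotomy in its absence.

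Eosinophils, basophils and mast cells are rare granulocytes that arise in the marrow from progenitors shared in part with the megakaryocyte and erythroid lines. Eosinophils mature under interleukin-5 and fill their granules with a peroxidase, a highly basic protein and ribonucleases. Basophils and mast cells carry the high-affinity receptor for IgE, and their granules hold histamine, serine proteases and carboxypeptidase A3. In a bulk RNA sample, fewer cells of a type and less RNA per cell cannot be told apart.

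Among the 10 genes, the basophil protease gene Mcpt8 fell in marrow, to 51.2% of its control level at 48 h. Cpa3, the gene of carboxypeptidase A3, was lower by a smaller amount and missed the test across all genes. The 7 genes most typical of eosinophils, Epx, Prg2, Prg3, Ear1, Ear2, Ear6 and Il5ra, varied together from mouse to mouse and had fitted changes between -0.11 and 0.06 on the log2 scale at 24 h and between -0.37 and -0.17 at 48 h, with no change past the test. In liver, Epx, Mcpt8 and Cpa3 were not well above background on any array.

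The probes are shown because the readout of the ribonuclease genes depends on them. The Ear genes are close paralogues on chromosome 14, and the array distinguishes them with 60-base probes that share stretches. The Ear1 probe lies at chr14:44396709-44396768 (mm9, minus strand). A probe annotated to Ear7, a paralogue of the same cluster outside the 10 genes, lies at chr14:52473974-52474033 (mm9, plus strand). That probe falls between the probes of Ear6 and is not the Ear7 probe whose values are given further on. The Ear1 and Ear7 probes are given 5′ to 3′, with the longest run they have in common, of 20 bases, in capitals.
Ear1: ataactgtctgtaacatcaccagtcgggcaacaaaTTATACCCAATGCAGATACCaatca
Ear7: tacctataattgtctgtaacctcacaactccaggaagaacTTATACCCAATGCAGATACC
The Ear2 probe (chr14:44681119-44681178, mm9, plus strand) and the Ear6 probe used here (chr14:52474253-52474312, mm9, plus strand) have a run of 23 bases in common, printed alone.
Ear2 and Ear6, shared run: GCTGAATAGATCTTTTCTAATTA
The accessions listed for the Ear2 probe name Ear1 as well as Ear2, so the values of the Ear genes may hold signal from each other and are uncertain as values of single genes. The probes of Mcpt8 (chr14:56701075-56701134, mm9, minus strand) and Epx (chr11:87678288-87678347, mm9, minus strand), whose values are set side by side further on, list 1 gene each and are printed with no part marked.
Mcpt8: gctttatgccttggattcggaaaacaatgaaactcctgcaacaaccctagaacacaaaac
Epx: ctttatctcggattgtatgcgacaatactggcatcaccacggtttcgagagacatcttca
The remaining probes lie, in mm9, on chromosome 2 (Prg2 and Prg3, neighbouring genes), chromosome 3 (Cpa3), chromosome 6 (Il5ra) and chromosome 9 (Ccr3). One Prg3 probe spans 1510 bases of the genome for its 60 bases, that is, it crosses a splice junction. Whether the other probes lie in coding or untranslated exons was not analysed here.

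Values are log2 of the processed spot intensity minus the 75th percentile of the same array, so 0 is the brightness below which 75% of an array's spots fall. That percentile was an intensity of 693.8 to 941.8 on the marrow arrays and 354.1 to 466.7 on the liver arrays, and 32009 to 35700 and 28014 to 34428 probes were well above background. In marrow 21381 genes were tested, and the median change over all of them was -0.03 at 24 h and 0.00 at 48 h. The marrow array of 24 h replicate 2 stood apart: all 15 hepatocyte marker genes were well above background there, at a median of 12.8% of their mean level in liver, against 0.00202% to 0.0221% on the other 11 marrow arrays. Erfe was well above background on that array (level -2.60) and on none of the other 23. Where its 2 probes lie relative to the deletion was not analysed here, so its levels do not check the genotype. In liver all 15 hepatocyte markers were well above background on every array. The marrow array of 0 h replicate 2 was the lowest of its group for each of the 7 eosinophil genes. In liver, the array of 0 h replicate 4 carried granule genes of marrow cells above the level of the other 3 controls. The results for the 10 genes that rest on these arrays are also given without them.

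Mcpt8 encodes a granule serine protease made by basophils. In marrow its levels were 3.41, 3.16, 3.29 and 3.57 in the control mice, 2.60, 2.59, 2.96 and 2.97 at 24 h, and 2.54, 2.19, 2.35 and 2.48 at 48 h. Every phlebotomized mouse lay below the lowest control, and every mouse at 48 h lay below the lowest at 24 h. The 48 h mean differed from the control mean by -0.97 ± 0.13 (SE, n = 4 and 4), that is 51.2% of the control level with a 95% interval of 42.2% to 62.0%. This passed the test across all genes (limma, Benjamini-Hochberg adjusted p = 0.00453). The exact two-sided permutation test gave p = 0.0286, the smallest that 4 against 4 allows. At 24 h the change was -0.58 ± 0.13, to 67.0% (interval 55.3% to 81.3%), with an adjusted p of 0.0648 in limma and p = 0.0286 in the exact permutation test. Mcpt8 at 24 h thus missed the threshold, although it passed with the slide as a block (-0.63, limma adjusted p = 0.0245) and in 4 of the other alternatives. Between 24 h and 48 h it differed by -0.39 ± 0.13 (limma adjusted p = 0.574; exact permutation p = 0.0286).

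The arrays lay on 3 slides, each of which held marrow arrays of every time. Within the slides the 48 h change of Mcpt8 was -0.75, -1.02 and -1.09, and with the slide as a block it was -0.95 (limma adjusted p = 0.00405). Without the marrow array of 0 h replicate 2 it was -1.03 (adjusted p = 0.01), without that of 24 h replicate 2 it was -0.97 (adjusted p = 0.00541), and without both it was -1.03 (adjusted p = 0.012). The 24 h change was -0.51 without 24 h replicate 2 (adjusted p = 0.137), the array with hepatocyte RNA, and -0.58 without both arrays (adjusted p = 0.178).

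Cpa3 encodes carboxypeptidase A3, a protease of mast cell granules whose transcript is also found in basophils and their progenitors. Its marrow levels were 1.08, 1.17, 0.96 and 1.04 in controls, 0.48, 0.36, 0.99 and 0.68 at 24 h, and 0.41, 0.30, 0.40 and 0.75 at 48 h. At 24 h replicate 3 lay within the control range, while at 48 h no mouse reached it. The 48 h change was -0.60 ± 0.14 (SE), to 66.2% of control with an interval of 53.8% to 81.5%, and did not pass across all genes (limma adjusted p = 0.0699; exact permutation p = 0.0286). At 24 h it was -0.43 ± 0.14, to 74.0% (limma adjusted p = 0.203; exact permutation p = 0.0571). Within the slides the 48 h change of Cpa3 was -0.71, -0.60 and -0.29. Without 0 h replicate 2 the changes of Cpa3 were -0.40 at 24 h and -0.56 at 48 h, and without 24 h replicate 2 they were -0.35 and -0.60. The 48 h change passed in 4 of 25 alternatives, among them without marrow 24 h replicate 2 (adjusted p = 0.0469) and without 24 h replicate 3 (adjusted p = 0.0378).

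**Figure D1:**
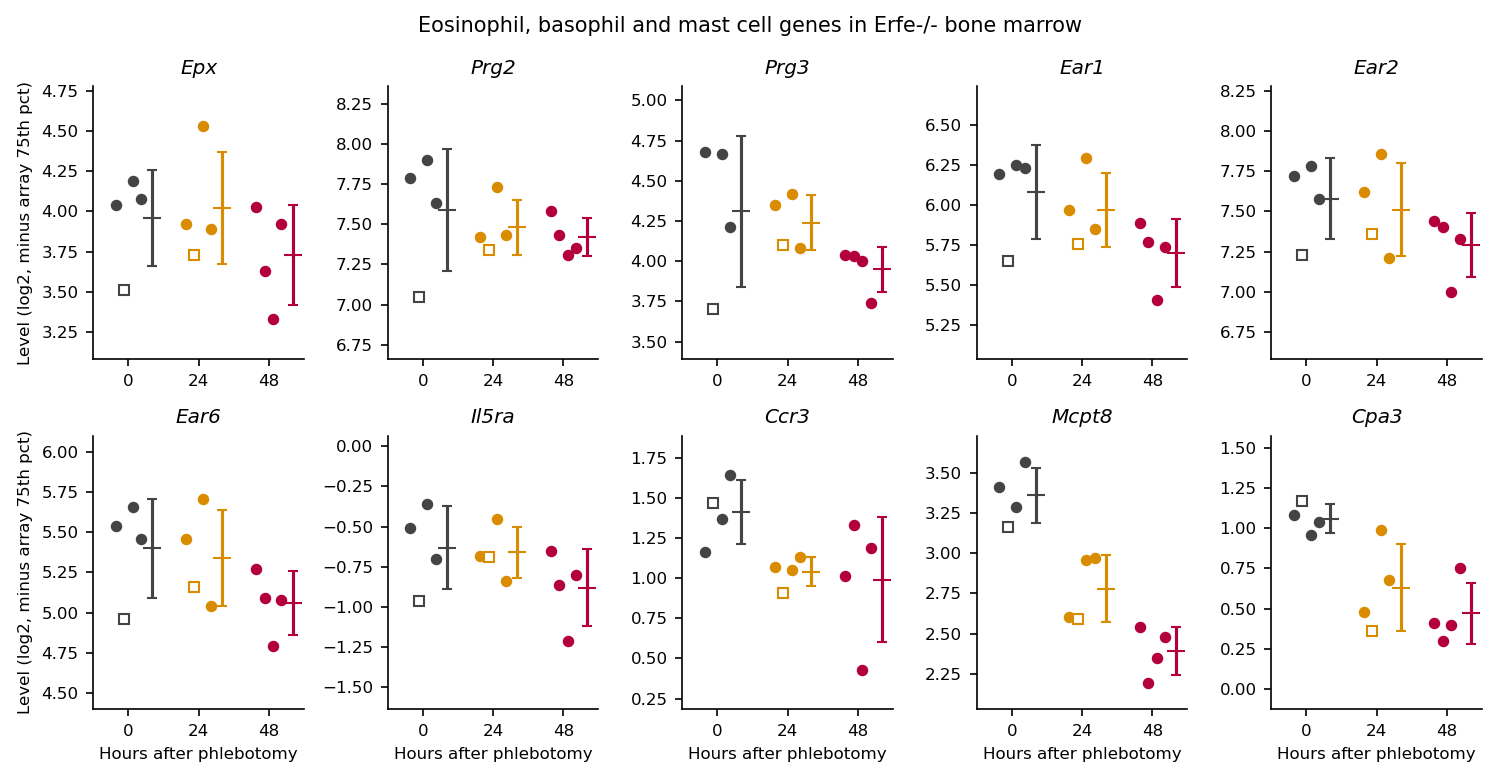
Marrow levels of the 10 genes by hours after phlebotomy, as log2 of the processed intensity minus the array's 75th percentile, 1 point per mouse (4 per time) with bars for mean ± SD, in panels of equal height in log2 units. Open squares mark the arrays of 0 h replicate 2 and 24 h replicate 2. Mcpt8 went from a mean of 3.36 ± 0.17 to 2.78 ± 0.21 and 2.39 ± 0.15 with no overlap between times, while Epx had means of 3.96 ± 0.30, 4.02 ± 0.35 and 3.73 ± 0.31 with overlapping points.

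A wider list of 34 other basophil and mast cell genes held 26 that could be tested in marrow. At 48 h 3 of the 26 fell and 0 rose past the adjusted threshold in limma, against 1.06% of all genes called and 0.168% called lower. The median change over the 26 was -0.24, against 0.00 over all genes tested, and 23 of 26 had a change below 0, against 50.6% of all genes. Marker lists of other myeloid cells had similar shifts at 48 h. Neutrophil genes had a median of -0.21 with 11 of 14 below 0, and monocyte genes -0.25 with 12 of 13 below 0. Prss34, a protease gene of basophils, had levels of 3.97, 3.75, 3.72 and 4.11 in controls, 3.12, 3.12, 3.68 and 3.51 at 24 h, and 3.07, 2.81, 3.13 and 3.07 at 48 h. Its 48 h change was -0.87 ± 0.15 (SE), to 54.8% of control (limma adjusted p = 0.0164). Cd200r3, an activating receptor of basophils and mast cells, was dimmer, with -2.86, -2.82, -2.71 and -2.55 in controls and -3.50, -3.64, -3.61 and -3.31 at 48 h. It fell by 0.78 ± 0.10 on the log2 scale, to 58.1% (limma adjusted p = 0.00492). Ms4a2, the beta chain of the high-affinity IgE receptor, had 0.57, 0.39, 0.42 and 0.66 in controls and -0.15, -0.19, -0.01 and 0.04 at 48 h, a change of -0.59 ± 0.10 to 66.6% (limma adjusted p = 0.0189). For these 3 genes, as for Mcpt8, all 4 mice at 48 h lay below all 4 controls, as was so for 5 of the 26 genes and 4.88% of all genes.

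At 24 h 0 of the 26 passed in limma, against 1.0% of all genes, and 5 had an unadjusted p under 0.05, all of them lower, against 12.7% of all genes in either direction. Prss34 had -0.53 (limma adjusted p = 0.135), Cd200r3 -0.41 (0.106) and Ms4a2 -0.34 (0.166). With the slide as a block Cd200r3 passed at 24 h (-0.46, adjusted p = 0.0402). The brightest others on the list had smaller 48 h changes that did not pass: -0.42 for Hdc, which makes histamine, -0.23 for Fcer1g, the gamma chain of the IgE receptor, -0.20 for Srgn, the granule proteoglycan serglycin, -0.15 for Il3ra and -0.08 for Kit, the stem cell factor receptor. Fcer1g and Srgn are also expressed by other myeloid cells, and Kit by progenitors. Fcer1a, dimmer and named after its values were seen, had means of -0.69 in controls and -1.32 at 48 h. It did not pass in limma, except with array weights, and its level at 48 h replicate 3 (-0.93) lay within the control range. Gata2 and Mitf, transcription factor genes of the list, had 48 h changes of -0.27 and -0.33 with no overlap between groups. Their adjusted p-values were 0.298 and 0.112 in limma, and they are named after their values were seen. For Gata2 the gap was within rounding, as the lowest control and the highest mouse at 48 h both read 0.40. The other 2 kept Mitf probes had 48 h changes of -0.12 and -0.10 with overlapping groups. Although 23 of 26 genes were below 0, Il1rl1 had means of 1.41 in controls and 1.60 at 48 h, and Ndst2 of 1.21 and 1.32. Of further protease genes, Cma1 had means of -3.80 and -3.93 and Tpsb2 of -1.71 and -2.13. In all 4 genes the groups overlapped, and they too are named after their values were seen. Mcpt1, Mcpt2, Mcpt4 and Tpsab1 were too dim to be tested. The call of Ms4a2 was lost without marrow 0 h replicate 1 (adjusted p = 0.0686), 48 h replicate 1 (0.0644) or 48 h replicate 2 (0.0801), and that of Prss34 without 0 h replicate 1 (0.0623) or 48 h replicate 2 (0.069). A second Cd200r3 probe gave -0.63 at 48 h, and averaging both probes gave -0.71 with an adjusted p of 0.362. On that probe the array of 24 h replicate 4 read -0.68 against -4.38 to -3.96 on the other arrays of 24 h, and its part in the lost call was not tested.

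**Figure D2:**
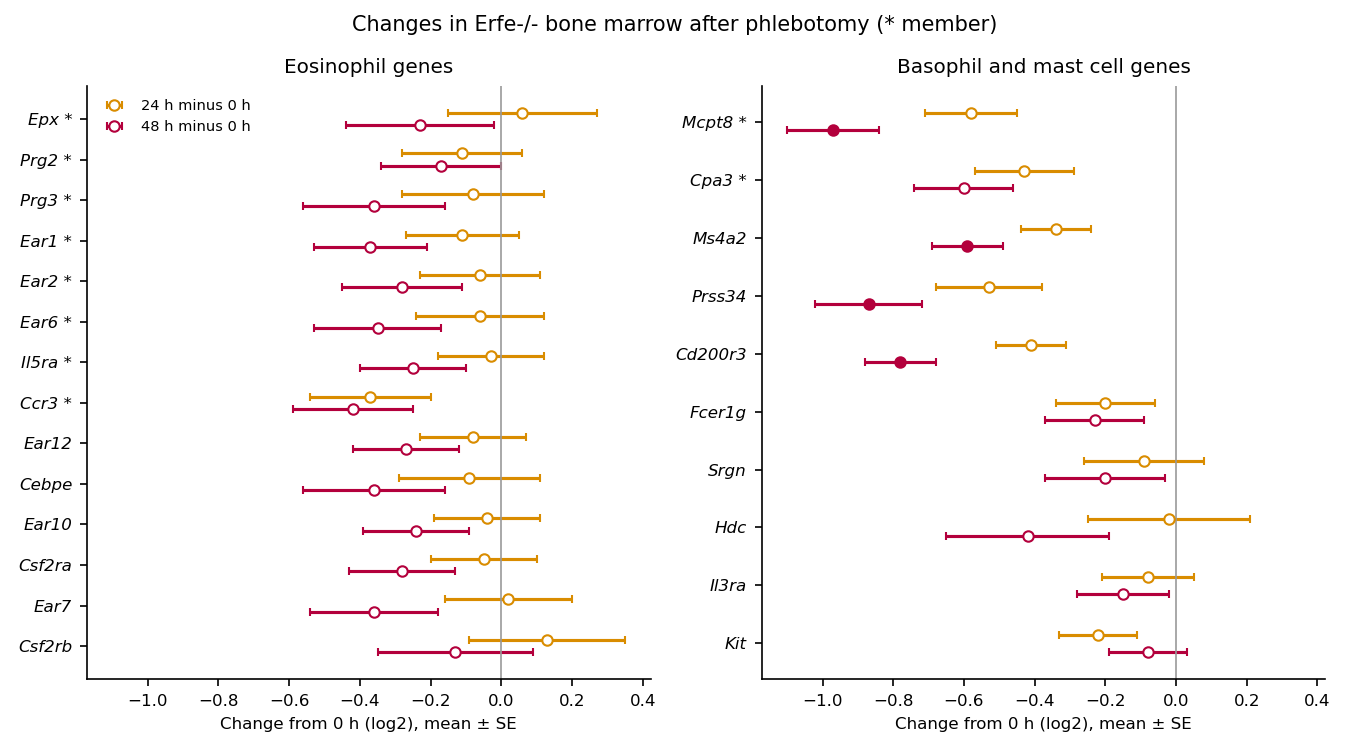
Change in marrow against control, as log2 with SE bars (n = 4 mice per time), at 24 h in orange and 48 h in red, for eosinophil genes on the left and basophil and mast cell genes on the right, with the 10 genes of interest starred. Filled points passed limma's adjusted p of 0.05: Mcpt8 (-0.97), Prss34 (-0.87), Cd200r3 (-0.78) and Ms4a2 (-0.59) at 48 h, all on the right.

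Because these 4 genes fell at the same time, the 250 bases before their starts are shown from RefSeq (GRCm38.p6). Matches to GATAA, the core of the site bound by GATA factors, or to its reverse complement TTATC are in capitals, and no match overlaps another.
Mcpt8, chr14:56085198-56085447, minus strand: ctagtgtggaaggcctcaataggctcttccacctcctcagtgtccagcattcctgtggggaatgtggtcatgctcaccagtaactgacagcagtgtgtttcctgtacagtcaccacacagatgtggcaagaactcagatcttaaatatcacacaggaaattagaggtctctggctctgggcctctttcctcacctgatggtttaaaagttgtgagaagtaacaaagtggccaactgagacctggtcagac
Prss34, chr17:25298144-25298393, plus strand: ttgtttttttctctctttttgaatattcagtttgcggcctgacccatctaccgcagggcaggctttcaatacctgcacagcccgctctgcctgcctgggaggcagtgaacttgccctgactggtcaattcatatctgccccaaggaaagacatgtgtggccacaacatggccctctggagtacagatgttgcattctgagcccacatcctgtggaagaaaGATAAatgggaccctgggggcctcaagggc
Ms4a2, chr19:11623720-11623969, minus strand: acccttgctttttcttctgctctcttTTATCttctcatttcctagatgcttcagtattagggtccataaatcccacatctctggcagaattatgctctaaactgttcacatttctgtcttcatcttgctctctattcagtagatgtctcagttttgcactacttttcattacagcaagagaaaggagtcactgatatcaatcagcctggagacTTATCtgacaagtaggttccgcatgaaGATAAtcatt
Cd200r3, chr16:44943428-44943677, plus strand: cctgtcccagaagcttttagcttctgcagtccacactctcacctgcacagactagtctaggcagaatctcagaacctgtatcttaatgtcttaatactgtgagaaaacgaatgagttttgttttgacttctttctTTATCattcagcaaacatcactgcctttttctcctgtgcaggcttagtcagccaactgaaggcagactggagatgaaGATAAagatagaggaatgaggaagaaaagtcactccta
The windows held 0 matches for Mcpt8, 1 for Prss34, 3 for Ms4a2 and 2 for Cd200r3. Of 32851 promoters of the same length 22.6% held at least 1 match and 4.3% held 2 or more. Of the 10 genes, 9 had an entry and 4 of the 9 held a match: Prg3 with 2, and Il5ra, Ccr3 and Cpa3 with 1 each. Epx, Ear1, Ear2, Ear6 and Mcpt8 had none in this window, and Prg2 had no entry.

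Among the granule genes of eosinophils, Epx, which encodes eosinophil peroxidase, had marrow levels of 4.04, 3.51, 4.19 and 4.08 in controls, 3.92, 3.73, 4.53 and 3.89 at 24 h, and 4.03, 3.63, 3.33 and 3.92 at 48 h. The 3 groups overlapped, and the control with the low value was replicate 2. The 24 h change was 0.06 ± 0.21 (SE; 95% interval -0.40 to 0.52; limma adjusted p = 0.934) and the 48 h change -0.23 ± 0.21 (interval -0.69 to 0.23; limma adjusted p = 0.631). These intervals reach from 75.8% to 143.4% of the control level at 24 h and from 62.0% to 117.4% at 48 h. Within the slides the 48 h change of Epx was 0.25, -0.71 and -0.16, so its direction differed between slides. Without marrow 0 h replicate 2 it was -0.38 (limma adjusted p = 0.491), and without 48 h replicate 3 it was -0.10.

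Prg2 encodes the major basic protein of eosinophil granules and Prg3, its neighbour on chromosome 2, a homologue of it. Prg2 had 7.79, 7.05, 7.90 and 7.63 in controls, 7.42, 7.34, 7.73 and 7.43 at 24 h, and 7.58, 7.43, 7.31 and 7.35 at 48 h. All later values lay inside the control range, which replicate 2 widened downwards, and the changes were -0.11 at 24 h and -0.17 at 48 h (interval -0.54 to 0.19; limma adjusted p = 0.644). Prg3 had 4.68, 3.70, 4.67 and 4.21 in controls, 4.35, 4.10, 4.42 and 4.08 at 24 h, and 4.04, 4.03, 4.00 and 3.74 at 48 h. The 48 h mice lay below all mice at 24 h but within the control range, again through control replicate 2. The Prg3 change from control at 48 h was -0.36 ± 0.20 (limma adjusted p = 0.395), and from 24 h to 48 h it was -0.29 (limma adjusted p = 0.747; exact permutation p = 0.0286). The junction-spanning Prg3 probe gave 0.02 at 24 h and -0.26 at 48 h.

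The 3 Ear genes encode eosinophil-associated ribonucleases. Ear1 had 6.19, 5.65, 6.25 and 6.23 in controls, 5.97, 5.76, 6.29 and 5.85 at 24 h, and 5.89, 5.77, 5.41 and 5.74 at 48 h. The control of replicate 2 was lower than all but 1 of the phlebotomized mice. The Ear1 change was -0.11 at 24 h (limma adjusted p = 0.823) and -0.37 ± 0.16 at 48 h (adjusted p = 0.299), and the latter became -0.52 without that control (adjusted p = 0.204). Ear2 ranged from 7.23 to 7.78 in controls, 7.21 to 7.86 at 24 h and had a mean of 7.29 ± 0.20 (SD) at 48 h, and Ear6 ranged from 4.96 to 5.66, 5.04 to 5.71 and 4.79 to 5.27. Ear2 changed by -0.06 and -0.28 and Ear6 by -0.06 and -0.35, with no call in limma, and the second Ear6 probe gave -0.04 and -0.32. As the Ear2 and Ear6 probes share a run and the Ear2 probe also lists Ear1, these cannot be taken as 3 independent readings.

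Il5ra encodes the alpha chain of the interleukin-5 receptor, through which eosinophils receive their main growth signal. Its levels ran from -0.96 to -0.36 in controls, -0.84 to -0.45 at 24 h and -1.21 to -0.65 at 48 h, overlapping throughout, with changes of -0.03 at 24 h and -0.25 ± 0.15 at 48 h (limma adjusted p = 0.449). Its other probe gave -0.05 and -0.29. Ccr3, the receptor for eotaxins, is carried by eosinophils and also by basophils and mast cells. It had 1.16, 1.47, 1.37 and 1.64 in controls, 1.07, 0.91, 1.05 and 1.13 at 24 h, and 1.01, 1.33, 0.43 and 1.19 at 48 h. At 24 h all 4 mice lay below all controls, and at 48 h replicates 2 and 4 lay within the control range. Ccr3 changed by -0.37 ± 0.17 at 24 h (limma adjusted p = 0.411; exact permutation p = 0.0286) and by -0.42 ± 0.17 at 48 h (limma adjusted p = 0.269; exact permutation p = 0.0857). Without 48 h replicate 3, the lowest value, the 48 h change was -0.23.

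At 24 h, 0 of the 10 genes passed the adjusted threshold in limma, and 1.0% of all 21381 genes passed, with 0.468% called lower. Mcpt8 and Cpa3 had an unadjusted p under 0.05 then, as did 12.7% of all genes. At 48 h 1 of 10 passed, Mcpt8, against 1.06% of all genes and 0.168% called lower, and 4 of 10 (Mcpt8, Cpa3, Ear1 and Ccr3) had an unadjusted p under 0.05, against 15.8%. Between 24 h and 48 h 0 of 10 passed, against 0.00468% of all genes, and Mcpt8 alone had an unadjusted p under 0.05, against 7.68%. Groups lay apart with the later one lower for Mcpt8 and Ccr3 at 24 h, for Mcpt8 and Cpa3 at 48 h, and for Mcpt8 and Prg3 between 24 h and 48 h, 2 of 10 each time, against 4.31%, 4.88% and 0.865% of all genes. The median change of the 10 was -0.09 at 24 h, -0.36 at 48 h and -0.24 between them, and 9, 10 and 10 of them were below 0, as were 56.9%, 50.6% and 41.7% of all genes. Without marrow 0 h replicate 2, the control low in eosinophil genes, the 24 h changes of the 7 eosinophil genes ran from -0.29 for Prg2 to -0.09 for Epx, and without 24 h replicate 2 from -0.07 for Prg2 to 0.15 for Epx. Without 0 h replicate 2 the 48 h changes of the 7 eosinophil genes ran from -0.57 for Prg3 (limma adjusted p = 0.166) to -0.36 for Prg2 and Il5ra (adjusted p = 0.267 and 0.359), again with no call.

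Of 20 other eosinophil genes, 17 were on the array and 13 were tested in marrow. In limma 0 of the 13 passed at 24 h or 48 h, against 1.0% and 1.06% of all genes. An unadjusted p under 0.05 was reached by 1 at 24 h, which was higher, and by 0 at 48 h, against 12.7% and 15.8%. The median change of the 13 was -0.05 and -0.27, with 9 and 12 of 13 below 0. Over all genes the medians were -0.03 and 0.00, with 56.9% and 50.6% below 0. Among the brightest, the 48 h change was -0.27 for Ear12, -0.24 for Ear10 and -0.36 for Ear7, further ribonuclease genes of the family, -0.36 for Cebpe, a transcription factor of late granulocyte maturation, and -0.28 and -0.13 for Csf2ra and Csf2rb, chains of the receptor for granulocyte-macrophage colony-stimulating factor.

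Correlations between the 10 genes are given as a description. Across the 12 marrow arrays, the 21 pairs among the 7 eosinophil genes had Pearson correlations of 0.62 to 0.99, and 0.54 to 0.98 after the mean of each time was removed. The correlation of Mcpt8 and Cpa3 was 0.88, and 0.57 without the time means. Mcpt8 correlated with the 7 eosinophil genes at 0.46 to 0.68 and Cpa3 at 0.27 to 0.54, while Ccr3 did so at 0.05 to 0.51. With the time means removed these ranges were 0.16 to 0.64 for Mcpt8, -0.18 to 0.47 for Cpa3 and -0.29 to 0.34 for Ccr3, so that Mcpt8 followed some eosinophil genes as closely as it followed Cpa3. These values are descriptions over 12 arrays that share times and slides, and the Ear probes share sequence. Of 21032 genes compared, those most like Epx over the 12 arrays were Ear7 (r = 0.93), Il4 (0.90), Ear12 (0.89), Ear10 (0.88) and Rnase12 (0.87). Ear7, Ear10 and Ear12 were on the wider eosinophil list already, but Il4 was on that of basophil and mast cell genes. By the same rule, those most like Mcpt8 were Prss34 (0.98), Cd200r3 (0.96), Ms4a2 (0.95), Phldb3 (0.95) and Tgif1 (0.93). Phldb3 had a 48 h change of -0.46 (limma adjusted p = 0.0431), which passed in 10 of 25 alternatives and reached an adjusted p of 0.146 without single arrays. With time means removed, Ear7 and Epx had r = 0.95 and Prss34 and Mcpt8 had r = 0.90. For Epx with Il4, Ear12, Ear10 and Rnase12 it was then 0.89, 0.90, 0.87 and 0.90. For Mcpt8 with Cd200r3, Ms4a2, Phldb3 and Tgif1 it was lower, at 0.72, 0.70, 0.75 and 0.81.

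The change of Mcpt8 relative to Epx was taken on each array as the difference of their log2 levels, a ratio chosen after the values were seen. Only its change between times has a meaning, since the brightness of different probes is not comparable. It was -0.63, -0.35, -0.90 and -0.51 in controls, -1.31, -1.14, -1.56 and -0.92 at 24 h, and -1.49, -1.44, -0.98 and -1.43 at 48 h. All phlebotomized mice lay below all controls, and 24 h and 48 h overlapped. The mean differed from control by -0.64 at 24 h and -0.74 at 48 h, and by -0.10 between 24 h and 48 h. Without the marrow array of 0 h replicate 2 the differences from control were -0.56 and -0.66, without that of 24 h replicate 2 they were -0.67 and -0.74, and without both they were -0.59 and -0.66. As this pair of genes was picked for its values, the differences are a description with no test.

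**Figure D3:**
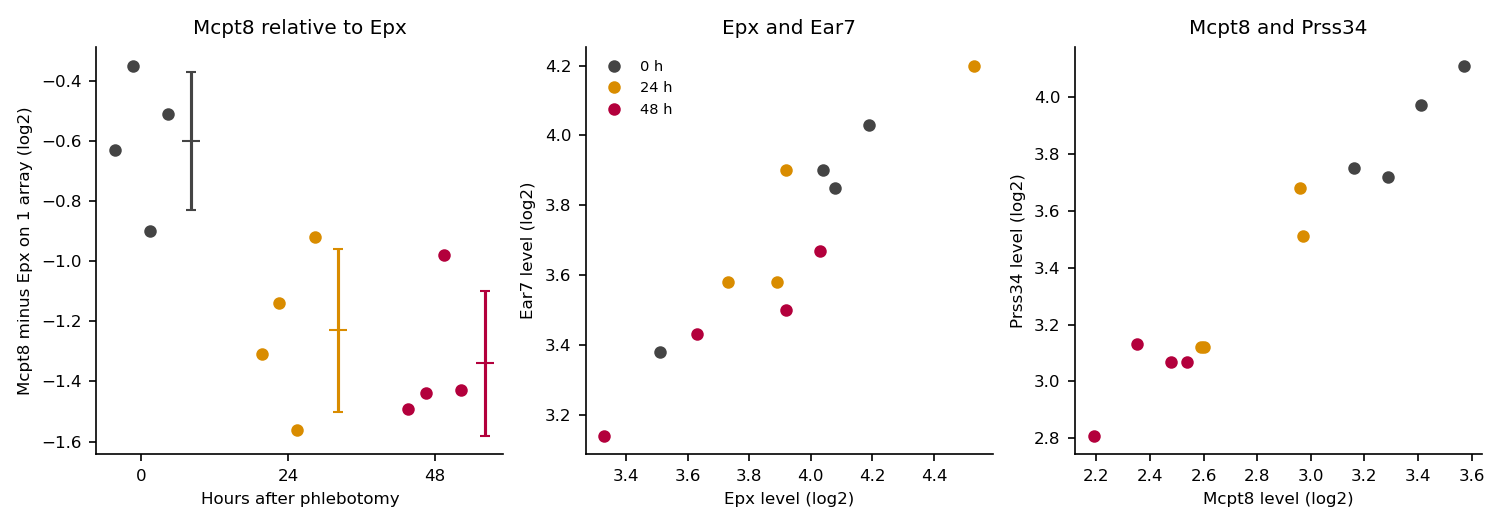
Left, Mcpt8 minus Epx on each marrow array by hours after phlebotomy, in log2 units, with 1 point per mouse (4 per time) and mean ± SD. It went from -0.60 ± 0.23 to -1.23 ± 0.27 and -1.34 ± 0.24. Middle and right, levels of Epx against Ear7 (r = 0.93) and of Mcpt8 against Prss34 (r = 0.98) on the 12 marrow arrays, both axes in log2 units, where times are mixed along the Epx line and ordered along the Mcpt8 line.

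Marker genes of other marrow cells were read at the same times. Of all genes, 1.0% passed in limma at 24 h and 1.06% at 48 h, and 56.9% and 50.6% had a change below 0. Of 14 neutrophil and 13 monocyte genes tested, 0 passed at 24 h or 48 h in limma, with medians of -0.06 and -0.21 for neutrophil genes and -0.16 and -0.25 for monocyte genes. Of these, 0 neutrophil genes and 3 monocyte genes had an unadjusted p under 0.05 at each time, against 12.7% and 15.8% of all genes. Changes were below 0 for 11 of 14 neutrophil genes at each time, and for 10 and 12 of 13 monocyte genes. The B cell genes had medians of -0.69 at 24 h and -0.52 at 48 h and the T and natural killer cell genes -0.65 and -0.33, with 9 of 9 below 0 in both lists at both times. Of 9 B cell genes Cr2 fell at 24 h (-1.15, adjusted p = 0.0419), and of 9 T and natural killer cell genes Cd8a (-1.10, 0.0266) and Cd3d (-0.65, 0.0367) did. At 48 h 0 of 9 genes passed in either list. Of 10 erythroid genes Tfrc, the transferrin receptor, rose at both times (0.79, adjusted p = 0.0154, and 1.02, 0.00376) and Rhag, a red cell membrane protein, at 48 h (0.74, 0.0428). Of 25 alternatives, Cr2 passed in 13, Cd8a in 15, Cd3d in 12, Rhag in 11 and Tfrc in 20 at 24 h and 25 at 48 h. Without single arrays the adjusted p reached 0.144 for Cr2, 0.0999 for Cd8a, 0.107 for Cd3d, 0.154 for Rhag and 0.0596 for Tfrc at 24 h. The summed level of the 10 erythroid markers was 85.8% to 124.3% of its control mean in controls, 82.1% to 115.3% at 24 h and 112.7% to 150.3% at 48 h. That of the 10 B cell markers was 71.5% to 122.8%, 47.9% to 73.9% and 50.8% to 94.6%, and that of the 9 T and natural killer cell markers 94.1% to 106.3%, 66.1% to 83.3% and 73.2% to 95.6%. That of the 14 neutrophil markers, all well above background on every array, was 83.1% to 118.9%, 81.5% to 106.5% and 79.6% to 111.6%. The summed level of the 10 genes of interest was 72.5% to 116.2%, 81.9% to 114.1% and 70.7% to 91.0%. All these sums are of linear signal, so the brightest probes weigh most, among the 10 genes those of Prg2 and Ear2. The part that these shifts in other cells have in the fall of Mcpt8 was not tested.

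In liver, 5 of the 10 genes were bright enough to be tested: Ear1, Ear2, Ear6, Il5ra and Ccr3. Ear1, Ear2 and the Ear6 probe used were well above background on 12 of 12 liver arrays, Ccr3 on 10 and Il5ra on 7. Epx, Mcpt8 and Cpa3 were not well above background on any, Prg2 was on 3 and Prg3 on 1. Il5ra entered the test through its 24 h group. It was well above background on 4 of 4 arrays at 24 h, 2 of 4 in controls and 1 of 4 at 48 h. Ccr3 did so too, with 4 of 4 arrays at 24 h and 3 of 4 at each other time. Detection at 24 h is therefore a condition of both being tested. A higher level of either at 24 h is no support for a change. The second Ear6 probe was well above background on 1 array of 12 in liver, against 12 of 12 in marrow, so the liver signal of Ear6 rests on the probe that shares 23 bases with Ear2.

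Against control, 0 of the 5 passed in liver at 24 h or 48 h, and 0 between these times (limma). So did 0% of all 19639 genes tested in liver in each comparison, although 11.2%, 6.55% and 7.67% of them had an unadjusted p under 0.05, as did 1 of the 5 in each, which between 24 h and 48 h was Il5ra. Ear6 had -2.15, -2.61, -2.44 and -1.79 in controls, -2.84, -2.91, -2.66 and -2.88 at 24 h, and -2.52, -2.41, -3.05 and -2.63 at 48 h. All mice at 24 h lay below all controls, as did 3.66% of all liver genes, and those at 48 h overlapped them. Its 24 h change was -0.57 ± 0.18 (SE; limma adjusted p = 0.344; exact permutation p = 0.0286), or -0.42 without liver 0 h replicate 4 (adjusted p = 0.562), and its 48 h change was -0.40 (adjusted p = 0.74). Ear1 and Ear2 were not lower at 24 h, with 0.24 and 0.15, and had -0.10 and -0.16 at 48 h. Without liver 0 h replicate 4 they had 0.45 and 0.27 at 24 h and 0.11 and -0.05 at 48 h. Il5ra had -4.15, -3.87, -4.27 and -4.28 in controls, -3.24, -4.42, -3.98 and -2.95 at 24 h, and -3.99, -4.59, -4.29 and -4.17 at 48 h. At 24 h replicates 1 and 4 were the highest of the 12, and the mean was 0.50 above control. Ccr3 changed by -0.11 and -0.29, with all groups overlapping. Of the 5 genes, 2 had a change below 0 at 24 h, 5 at 48 h and 4 between 24 h and 48 h, against 57.1%, 57.2% and 49.1% of all liver genes. In the latter comparisons 0 of 5 lay apart from the earlier group, against 2.67% and 1.85% of all liver genes with the later group lower. Il5ra and Ccr3 are among the 4 genes lower at 48 h than at 24 h. As both were tested through their 24 h groups, that count is no support for a fall.

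The liver array of 0 h replicate 4 differed from the other controls in the granule genes. Prg2 was at -0.77 there against -6.69 to -5.81 in the other controls, none of which was well above background. Prg3 was at -3.61 against -6.92 to -5.33, and the second Ear6 probe at -3.06 against -6.83 to -4.81. Genes of neutrophil granules were raised on the same array: Camp was at 1.87 against -2.09 to -1.45, Ltf at -0.50 against -6.38 to -5.49, Ngp at -0.89 against -6.30 to -5.30 and Mpo at -0.11 against -3.64 to -3.39. All 14 neutrophil markers were well above background on it. Of these markers, 13, 14 and 14 were also well above background at 24 h in replicates 1, 2 and 3, where Camp was at 1.01, 0.12 and 0.18, Ltf at -0.94, -2.18 and -2.50, Ngp at -1.20, -2.35 and -3.00 and Mpo at -0.45, -1.80 and -1.75. Of the 11 neutrophil genes tested in liver 0 passed at 24 h in limma, 1 had an unadjusted p under 0.05, and their median change was 0.80. Prg2 was also well above background at 24 h in replicate 3 (-4.62) and at 48 h in replicate 4 (-3.22).

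**Figure D4:**
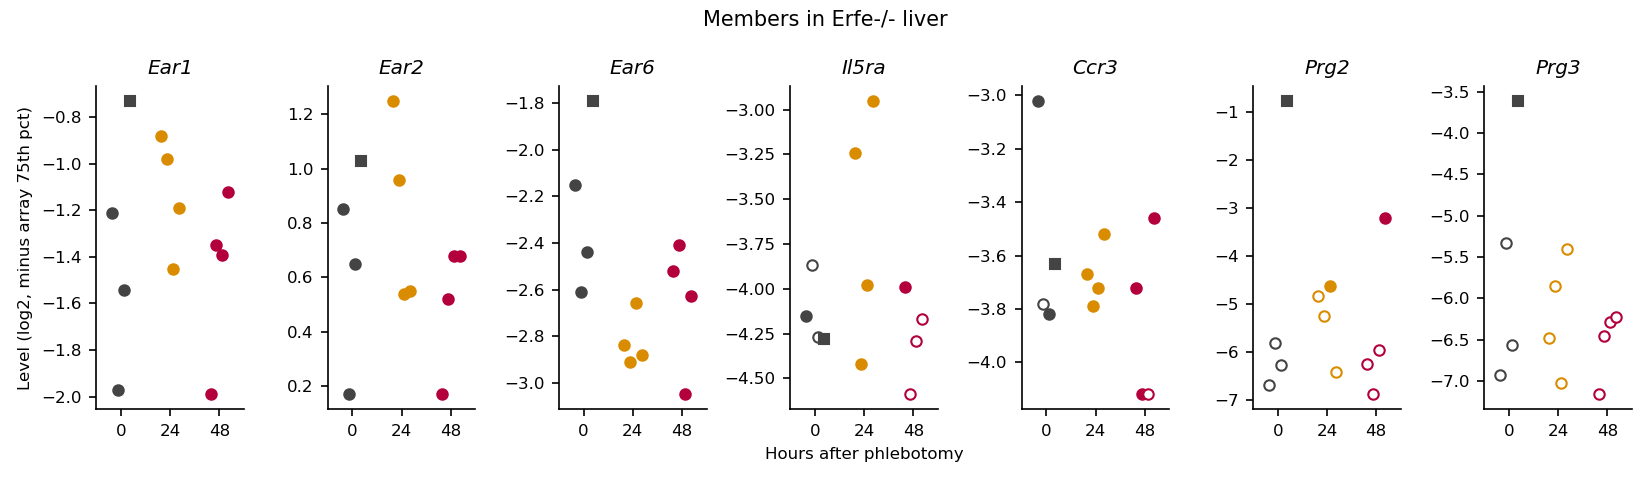
Liver levels of Ear1, Ear2, Ear6, Il5ra, Ccr3, Prg2 and Prg3 by hours after phlebotomy, in log2 units relative to the array's 75th percentile, 1 point per mouse (4 per time) and a vertical axis of its own for each gene. Filled points were well above background, and the square is the array of 0 h replicate 4. Ear1, Ear2 and Ear6 were above background on all 12 arrays, while Prg2 was on 3, the brightest (-0.77) being the square.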

How the data were processed

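Gene expression was measured on 24 one-colour Agilent arrays, 4 per time and tissue, grouped by the tissue and time in the labels. The deposited scanner files hold processed intensity values per spot, made with Agilent Feature Extraction 10.10.1.1, per the file headers. A processed table of log2 values, also deposited by the authors, ranked spots as the scanner's median signal does (Spearman 1.000), with 1 median for all marrow arrays (8.31) and 1 for all liver arrays (7.74). It was used as an alternative, its centring unstated. The submitters' processing notes name limma. The 3671 control spots and outlier spots were left out, and 0 spots were saturated. Spots of a probe were averaged as log2 intensity minus the array's 75th percentile. In each tissue a probe was kept if every array of 1 or more times had it well above background, and the brightest stood for its gene. One model per tissue covered its 3 times in limma 3.58.1 (R 4.3.3), with Benjamini-Hochberg adjustment over all genes at 0.05 and moderated spread, and single genes were checked with exact two-sided permutation tests. The limma p-values and SEs rest on the spread among the 4 mice of each time. That spread is pooled over the 3 times of a tissue and moderated across genes. The number of arrays limits precision. The script was tested on simulated data. Probe genes are those of the array annotation, updated through RefSeq names (GRCm38.p6), which named 32994 probes by accession, 10224 by symbol and 520 by synonym, and 12867 kept the file's name. The Il5ra probe that was not used lost its spot at marrow 24 h replicate 4. The genes and lists were chosen with earlier results of these data known. Named beside the 10 genes were those of the wider lists past the adjusted threshold or among the 6 brightest, up to 2 called genes with the largest change per list of other cell markers, and the 5 genes most like Epx and Mcpt8 by Pearson correlation. Alternatives changed the background correction (normexp, offset 50), the scaling, the filter, the rule for several probes, the slide or replicate block, the spread model, the samples in the fit and each array in turn. Leaving out the marrow arrays of 0 h replicate 2 and 24 h replicate 2 together was added after the data were seen.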

Additional observations from a re-analysis of the deposited data

Results flagged for a closer look

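In 58 groups of 4 arrays examined for a value far from the other 3, 2 exceeded Dixon's critical value at 95%, where chance gives about 1 in 20. Ear1 on the marrow array of 0 h replicate 2 was at 5.65 against 6.19 to 6.25 in the other controls, a gap of 0.896 of the range. Prg3 on the marrow array of 48 h replicate 4 was at 3.74 against 4.00 to 4.04, a gap of 0.877 of the range.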

How the results depend on the processing

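Mcpt8 at 48 h passed the threshold in 25 of 25 alternatives (adjusted p 0.00144 to 0.0207). The number of the 10 genes past it in marrow at 24 h, 0, became 1 (Mcpt8) with normexp, quantile normalization, the authors' values, the slide as a block and the trended robust model, and was 0 without any single array. At 48 h the number, 1, became 2 (Cpa3 added) with the trended robust model and with array weights, and was 1 to 2 without single arrays, 2 without 24 h replicate 2 or 3. Of the wider list, Ms4a2 and Prss34 were lost with no filter on dim probes (adjusted p = 0.0758 and 0.0611), where more genes are tested, and Ms4a2 (-0.65, 0.0533) and Cd200r3 (-0.71, 0.362) with the mean of a gene's probes.

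Over all genes, the 214 calls at 24 h became 66 with no filter, 123 with the replicate block, 347 with array weights, 115 with the 2 groups alone, 52 without both arrays that stood apart, and 66 (without 0 h replicate 2) to 214 without single arrays. The 227 at 48 h became 89 with no filter, 95 with the replicate block, 100 with the slide as a block, 660 with array weights, 106 without both arrays, and 91 (without 48 h replicate 2) to 328 (without 24 h replicate 2) without single arrays. The 1 call between 24 h and 48 h became 2 with the replicate block and with array weights, 0 with the 2 groups alone or without both arrays, and 1 to 1 without single arrays. In liver the 0 calls became at most 2 at 24 h and 1 between 24 h and 48 h, both without 24 h replicate 4, and 9 at 48 h without 48 h replicate 1. The lower share of calls at 24 h, 46.7%, was 24.2% with no filter, 23.1% without both arrays, and 21.2% (without 0 h replicate 2) to 50.7% (without 0 h replicate 1) without single arrays, with 26.5% and 32.0% without 0 h replicates 4 and 3.

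Whether replicate numbers pair the samples cannot be told, as arrays with different numbers were not compared. Deviations of arrays with the same number correlated at -0.25 to 0.17 in marrow and -0.27 to 0.15 in liver, with 5 and 3 of 12 pairs over 0.1. With the replicate block, the calls among the 10 genes were 0, 1 and 0 in marrow, as without it.

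Some changes turned sign, none of them called there or in the fit as reported, most of them near 0. At 24 h in marrow Hdc had 0.01 with normexp, the median scale and array weights and 0.02 without both arrays. Ear7 had -0.01 with quantile normalization, -0.03 with the authors' values and without both arrays, and -0.05 with array weights. Il4 had 0.03 under the first 2 of these and the median scale, Epx 0.00 with array weights, and Il5ra 0.02 with the authors' values. Averaging probes gave 0.17 for Il5ra, 0.14 for Cd200r3 and 0.09 for Kit at 24 h, against -0.41 and -0.22 for the latter genes with their brightest probe, and 0.17 for Kit at 48 h. Ccr3 between 24 h and 48 h had 0.01 with the slide block and array weights, and liver Il5ra at 48 h had 0.03 with the slide block. Without single arrays, the 24 h changes in marrow ran from -0.11 to 0.15 for Epx, -0.28 to 0.05 for Prg3, -0.18 to 0.04 for Ear2, -0.21 to 0.04 for Ear6, -0.14 to 0.06 for Il5ra, -0.19 to 0.00 for Ear12, -0.23 to 0.01 for Cebpe, -0.14 to 0.05 for Ear10, -0.19 to 0.02 for Csf2ra, -0.11 to 0.10 for Ear7, -0.04 to 0.27 for Csf2rb, -0.16 to 0.12 for Hdc, -0.17 to 0.01 for Il3ra and -0.11 to 0.09 for Il4. At 48 h Csf2rb ran from -0.24 to 0.01, and between 24 h and 48 h Prg2 from -0.12 to 0.02 and Ccr3 from -0.16 to 0.14. In liver Ear2 ran from -0.02 to 0.27 and Ccr3 from -0.20 to 0.07 at 24 h, and Ear1 from -0.30 to 0.11 at 48 h. Except where stated, the cause was not tested.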
